A study of Drosophila melanogaster with 33 samples.

Results

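The genes described here, piwi, aub, AGO3, rhi, del, cuff, armi, spn-E and zuc, encode core proteins of the piRNA pathway, and they are 9 of the 16407 genes listed in both deposited tables. They were chosen by name, with earlier results of these data known: cuff gained enrichment in labelled RNA at cellular blastoderm while del lost it. The poly(A) comparison of labelled RNA with input chose them, so those values are given as a description with no test. Embryos of the Oregon R strain of Drosophila melanogaster had received 5-ethynyl uridine (5-EU) by injection, so that RNA made afterwards could carry this analogue of uridine. Morphology set 4 stages: nuclear cycles (NC) 7-9, NC 9-10, and the blastoderm before (syncytial) and after (cellular) its nuclei are enclosed by membranes. RNA holding the label was given biotin and caught on streptavidin beads. The bound RNA (eluate), the unbound RNA (flow-through) and the RNA before binding (input) were sequenced. Poly(A) RNA was measured in 21 libraries. They come from 7 preparations, of which NC 7-9 has 1 and the other stages have 2 each. The first preparation of each stage and both at NC 9-10 had 250 mM 5-EU, and the second at syncytial and at cellular blastoderm had 50 mM. RNA depleted of ribosomal RNA was measured in 12 libraries from 4 preparations, 1 for each stage, all at 250 mM. Their titles match those of the first poly(A) preparation of each stage. The labels do not say whether both sets came from the same RNA. No embryos without the label are among the samples used here.

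piRNAs are small RNAs that guide PIWI proteins to transposon RNA, and in flies they act in the germ line and the somatic cells of the ovary. Long precursors are transcribed from piRNA clusters by machinery that includes Rhino (rhi), Deadlock (del) and Cutoff (cuff), and are cut into piRNAs in the nuage around the nucleus and at the mitochondrial surface. The mother loads pathway proteins, their mRNAs and piRNAs into the egg, much of this into the germ plasm at the posterior pole, where the pole cells form. Maternal mRNAs are cleared from the embryo as its own genome becomes active.

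All levels below are per length. Each deposited value less its added 1 was brought to a library total of 1000000 (written ppm) and then rescaled by the median of ratios across genes. Reads per library were estimated at 1.93 to 36.8 M (M, 1000000) over the 33 libraries. The injected embryos hold all cell types, so for every value fewer cells of a type and less RNA per cell cannot be told apart. The summed level of 8 markers of germ plasm and pole cells was 2851 to 3705 ppm in unbound RNA at NC 9-10 and 485 to 529 ppm at cellular blastoderm, with all 8 at 1 ppm or more at both stages. None of 8 markers of the mother's follicle cells reached 1 ppm in any flow-through or input group, and 1 did in syncytial and in cellular eluates, where they summed to at most 2.90 and 1.35 ppm. The summed level of 5 zygotic marker genes in eluates was 119 ppm at NC 7-9 and 14210 to 14334 ppm at cellular blastoderm. In the rRNA-depleted set, the inputs at NC 9-10 and syncytial blastoderm went against their label. The RNaseMRP RNA, which has no poly(A) tail as a mature molecule, stood there at 34.3 and 28.7 ppm, against 1267 to 10167 ppm in the other 10 rRNA-depleted libraries and 3.77 to 168 ppm in the poly(A) libraries. Those 2 inputs entered no ratio between fractions below. They did enter the main scaling of the rRNA-depleted set and the ratios of del to piwi within a library.

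In unbound RNA at NC 9-10 the members ranked, by mean level, del, piwi, AGO3, spn-E, armi, rhi, aub, zuc and cuff. The first 5 overlapped with their neighbours in that order, while from armi on each member stood above the next in both preparations. At cellular blastoderm the order was AGO3, rhi, zuc, aub, spn-E, piwi, armi, del and cuff. There zuc, aub, spn-E and piwi overlapped with their neighbours, as did armi and del, whereas AGO3 lay above rhi and rhi above zuc in both preparations.

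**Figure D1:**
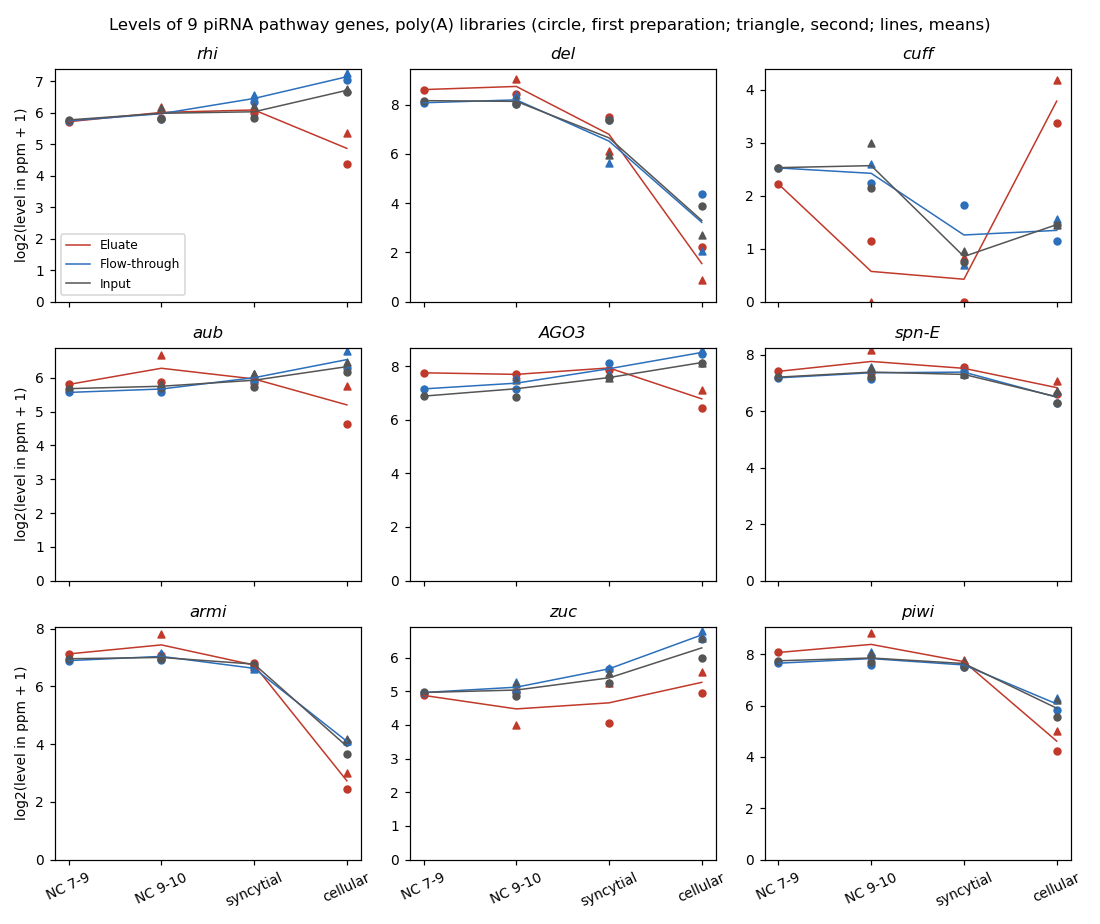
Levels of the 9 members in the 21 poly(A) libraries, as log2(level in ppm + 1), by stage, with eluate in red, flow-through in blue and input in grey; circles are the first preparation, triangles the second, and lines join the means. Unbound del and armi were lowest at cellular blastoderm, unbound AGO3, rhi and zuc were highest there in this scaling (their difference from NC 9-10 turned negative on the values as deposited), and cuff in eluates stood at 9.38 and 17.2 ppm at cellular blastoderm against 0 to 3.65 ppm at the earlier stages.

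Unbound poly(A) RNA was compared between stages with limma on log2(level + 1), as this contrast was not used to choose the members. It asks how the RNA left unbound by the beads differed between stages. How much labelled RNA stayed in that fraction was not measured here. The 5 zygotic marker genes summed there to 76.5 to 104 ppm at NC 9-10 and 775 to 1515 ppm at cellular blastoderm. A higher unbound level is therefore not by itself older RNA. Between NC 9-10 and cellular blastoderm 7 of the 9 members passed an adjusted p of 0.05, against 48.5% of the 8744 genes tested. Of these, 4 were lower (23.2% of all genes were called lower), namely del, armi, piwi and spn-E. The other 3, AGO3, rhi and zuc, were higher (25.3%), but were not called with libraries scaled by their total only and changed sign on the values as deposited. The median log2 difference was -0.86 over the members and 0.23 over all genes. The groups of 2 flow-through libraries did not overlap for any of the 9 members, aub and cuff included, which did not pass; the same held for 77.1% of all genes tested. Nothing in the labels says that the 2 preparations of a stage came from separate collections. The p-values measure the spread between these preparations, pooled over eluate, flow-through and input libraries. At both blastoderm stages the 2 preparations also differed in 5-EU concentration (250 and 50 mM), so the spread there holds both differences. The fit treated eluate, flow-through and input as separate, although those of 1 preparation deviated together (r of 0.511 to 0.929). The p-values may therefore be too small. With flow-through libraries fitted alone, 2222 genes were called higher and 1796 lower between NC 9-10 and cellular blastoderm, against 2214 and 2031. Between NC 9-10 and syncytial blastoderm that fit called 0, against 55 higher and 521 lower. The comparisons of cellular and of syncytial blastoderm with NC 9-10 share the NC 9-10 libraries. Where a result for unbound RNA is given below without a preparation, only its flow-through library was left out. The eluate and input of that preparation stayed in the fit.

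Of the 3 proteins that license transcription of piRNA clusters, del fell between NC 9-10 and cellular blastoderm. The gene cuff was not called in the main scaling but was called lower in both others. The gene rhi was called higher in the main scaling and in neither other one. Coordinates are those of the BDGP6.54 annotation on dm6. Deadlock, the bridge between Rhino and its partners (del, FBgn0086251, 2L:21145137-21148546, minus strand), stood in unbound RNA at 268 ppm at NC 7-9, 257 and 329 ppm at NC 9-10, 166 and 49.0 ppm at syncytial blastoderm and 19.6 and 3.19 ppm at cellular blastoderm. From NC 9-10 on, every library was lower than those of the stage before. The level at cellular blastoderm was 3.90% of that at NC 9-10. The log2 difference was -4.97 ± 0.83 (SE), with a limma adjusted p of 0.000419, the lowest log2 difference of the 9 members. It was -3.82 between the 250 mM preparations alone. Deadlock also fell from syncytial to cellular blastoderm, by 3.30 on the log2 scale (limma adjusted p = 0.0100). This call was lost without the first syncytial preparation (-2.43, adjusted p = 0.0950) and without the second cellular preparation (-2.15, adjusted p = 0.108), and with the flow-through libraries fitted alone (adjusted p = 0.0728).

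Rhino, the HP1-family protein that binds cluster chromatin (rhi, FBgn0004400, 2R:17628491-17633516, minus strand), was higher at the later stages in this scaling. Its unbound levels were 52.5 ppm at NC 7-9, 55.0 and 68.9 ppm at NC 9-10, 80.5 and 92.9 ppm at syncytial blastoderm and 129 and 152 ppm at cellular blastoderm. The log2 difference between cellular blastoderm and NC 9-10 was 1.17 ± 0.29 (SE), limma adjusted p = 0.00575, and 1.06 between 250 mM preparations alone. Without the first NC 9-10 preparation it was 1.01 with an adjusted p of 0.0518. With libraries scaled by their total only it was 0.39, not called, and on the values as deposited -0.47, the opposite sign.

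Cutoff, a Rai1-like protein that acts with Rhino against termination inside clusters (cuff, FBgn0260932, 2R:11886067-11887603, plus strand), was the least abundant member in unbound RNA at every stage. It stood at 4.74 ppm at NC 7-9, 3.74 and 5.04 ppm at NC 9-10, 2.52 and 0.62 ppm at syncytial blastoderm and 1.20 and 1.92 ppm at cellular blastoderm. These rest on few reads, an estimated 85 in each NC 9-10 library and 13 and 15 in the cellular ones. Its log2 difference of -1.08 ± 0.50 (SE) was not called (limma adjusted p = 0.0972). It was called lower with libraries scaled by their total only (-1.59, adjusted p = 0.0236) and as deposited (-3.10, adjusted p = 0.00557).

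In eluates, cuff took another course. In poly(A) eluates it stood at 3.65 ppm at NC 7-9, 1.20 and 0 ppm at NC 9-10, 0 and 0.79 ppm at syncytial blastoderm, and 9.38 and 17.2 ppm at cellular blastoderm. The estimated reads behind these values were 25 at NC 7-9, 4 and 0 at NC 9-10, 0 and 2 at syncytial blastoderm, and 70 and 152 at cellular blastoderm. Both cellular eluates were above every other poly(A) library of the gene in any fraction. Against flow-through of the same preparation the log2 difference was 2.24 and 2.64 at cellular blastoderm, against -1.11 and -2.59 at NC 9-10. Those cellular values exceeded the same difference in 75.2% and 88.7% of the genes tested, whose medians were 0.63 and 0.50. The rRNA-depleted eluates stood at 6.65, 1.96, 0 and 23.8 ppm from NC 7-9 to cellular blastoderm, the last on an estimated 346 reads, beside 6.69, 4.46, 1.5 and 1.39 ppm in flow-through. The log2 difference there was 3.37 at cellular blastoderm. In poly(A) input cuff was at 1.74 and 1.73 ppm at that stage. The exons of cuff share 36 bp (2.78% of its length) with ERp60 on the opposite strand. ERp60 stood at 212 and 444 ppm in the cellular poly(A) eluates against 1162 and 1415 ppm in flow-through. The part of this overlap in the level of cuff was not tested. In the same poly(A) eluates 3 markers of hemocyte and amnioserosa cells summed to 1.70 to 8.88 ppm at NC 9-10 and 76.7 to 351 ppm at cellular blastoderm, with 2 and 3 of the 3 at 1 ppm or more. Those of older embryos summed to 0 to 0.124 ppm and 24.4 to 113 ppm, with 0 and 1 of 3 at 1 ppm or more. Their part in the level of cuff was not tested. Because these values chose cuff, they are a description.

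Aubergine, Argonaute 3 and Spindle-E act in the nuage, where the ping-pong cycle cuts transposon and cluster RNA in turn. Aubergine, a PIWI protein loaded mainly with antisense piRNAs (aub, FBgn0000146, 2L:10997819-11001476, minus strand), stood in unbound RNA at 46.5 ppm at NC 7-9, 46.8 and 53.4 ppm at NC 9-10, 58.9 and 68.0 ppm at syncytial blastoderm and 77.4 and 110 ppm at cellular blastoderm. Both cellular libraries were the highest, but the log2 difference of 0.87 ± 0.36 (SE) was not called (limma adjusted p = 0.0670). It was called with the flow-through libraries fitted alone (adjusted p = 0.0413), and it was 0.09 by total scaling and -0.78, the opposite sign, as deposited.

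Argonaute 3, its ping-pong partner (AGO3, FBgn0250816, 3L:23554593-23689640, plus strand), stood at 141 ppm at NC 7-9, 140 and 193 ppm at NC 9-10, 277 and 206 ppm at syncytial blastoderm and 346 and 384 ppm at cellular blastoderm. It was 2.20 times as high at cellular blastoderm as at NC 9-10, with a log2 difference of 1.15 ± 0.27 (SE) and a limma adjusted p of 0.00425. Between 250 mM preparations alone the difference was 1.07. It was not called by total scaling (0.36), and its sign turned on the values as deposited (-0.51).

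Spindle-E, a helicase needed for ping-pong (spn-E, FBgn0003483, 3R:15837419-15844415, plus strand), kept 54.7% of its unbound NC 9-10 level at cellular blastoderm. Its levels were 144 ppm at NC 7-9, 140 and 190 ppm at NC 9-10, 172 and 160 ppm at syncytial blastoderm and 76.3 and 104 ppm at cellular blastoderm. The cellular libraries were the lowest. The log2 difference was -0.86 ± 0.29 (SE), limma adjusted p = 0.0263, and -1.09 between 250 mM preparations. The call was lost without the second NC 9-10 preparation (-0.65, adjusted p = 0.180) and without the first cellular one (-0.64, adjusted p = 0.167). From syncytial to cellular blastoderm it fell by 0.89 on the log2 scale (limma adjusted p = 0.0335). That call was lost without the first or the second syncytial preparation (adjusted p = 0.129 and 0.0791) and without the first cellular one (adjusted p = 0.194), with flow-through libraries alone (adjusted p = 0.0609) and as deposited (adjusted p = 0.0606).

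Armitage and Zucchini make phased piRNAs, Armitage as the helicase that brings precursors to the mitochondrial surface and Zucchini as the endonuclease that cuts them there. Unbound armi (FBgn0041164, 3L:3461317-3466314, plus strand) stood at 118 ppm at NC 7-9, 121 and 142 ppm at NC 9-10, 99.2 and 96.6 ppm at syncytial blastoderm and 15.97 and 16.3 ppm at cellular blastoderm. The cellular libraries held 12.3% of the NC 9-10 level. The log2 difference was -2.94 ± 0.27 (SE), limma adjusted p = 6.14e-06, and -2.96 between 250 mM preparations. From syncytial to cellular blastoderm armi fell by 2.53 (limma adjusted p = 6.90e-05), and both comparisons were called without any 1 of the flow-through libraries. In the annotation, 99.6% of the exonic length of armi also belongs to CG46463 on the same strand, so the value is that of the shared locus.

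Unbound zuc (FBgn0261266, 2L:11988735-11989882, minus strand) was higher at cellular blastoderm in this scaling. It stood at 30.1 ppm at NC 7-9, 30.5 and 37.4 ppm at NC 9-10, 49.4 and 50.1 ppm at syncytial blastoderm and 93.6 and 109 ppm at cellular blastoderm. Libraries of each later stage were all above those of the stage before. The log2 difference from NC 9-10 to cellular blastoderm was 1.55 ± 0.42 (SE), limma adjusted p = 0.00836, and 1.44 between 250 mM preparations. It was 1.41 (adjusted p = 0.0573) without the first NC 9-10 preparation and 1.44 (adjusted p = 0.0525) without the second cellular one. It was 0.78, not called, by total scaling and -0.079, the opposite sign, as deposited.

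Piwi, the nuclear PIWI protein that silences transposons at the chromatin (piwi, FBgn0004872, 2L:10982205-10987420, minus strand), stood in unbound RNA at 200 ppm at NC 7-9, 190 and 271 ppm at NC 9-10, 183 and 200 ppm at syncytial blastoderm and 56.5 and 77.2 ppm at cellular blastoderm. The syncytial libraries lay within the range of NC 9-10 or just below it, and the cellular ones well below. The log2 difference from NC 9-10 to cellular blastoderm was -1.77 ± 0.35 (SE), limma adjusted p = 0.00141, and -1.99 between 250 mM preparations. From syncytial to cellular blastoderm piwi fell by 1.52 (limma adjusted p = 0.00655). Without the first cellular preparation that was -1.30 (adjusted p = 0.0539).

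The fall of del, armi, piwi and spn-E went with the lower summed level of germ plasm and pole cell markers given above, whose part in it was not tested. Under the alternative scalings the median of all genes in this comparison was -0.14 (total only) and -1.05 (as deposited) in place of 0.23. AGO3, rhi and zuc lay above the median of all genes under each scaling, by 0.92, 0.94 and 1.32 in the main one and by 0.54, 0.57 and 0.97 on the values as deposited. Calls over all genes split into 2214 higher and 2031 lower in the main scaling, 685 and 2683 by total only and 712 and 3232 as deposited. The percentages kept that are given above are those of poly(A) RNA. In rRNA-depleted flow-through, with 1 library for each stage, del stood at 80.1 ppm at NC 9-10 and 7.21 ppm at cellular blastoderm. In the same order armi stood at 163 and 36.2 ppm, piwi at 221 and 61.6 ppm and spn-E at 166 and 124 ppm. For AGO3 the levels were 198 and 364 ppm, for rhi 64.0 and 124 ppm and for zuc 36.3 and 106 ppm. These were not tested between stages.

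**Figure D2:**
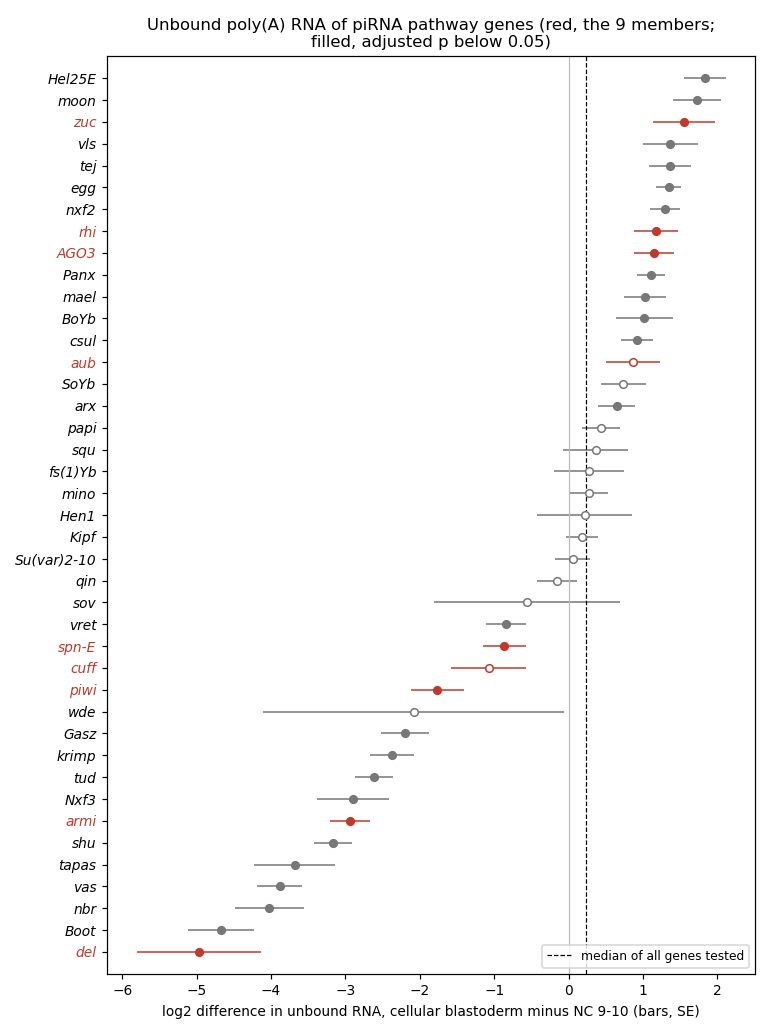
Log2 difference in unbound poly(A) RNA, cellular blastoderm minus NC 9-10, with SE bars, for the 9 members (red) and the 32 other piRNA pathway genes tested (grey); filled points passed an adjusted p of 0.05, and the dashed line is the median of all genes, 0.23. The members spread from del at -4.97 to zuc at 1.55 (-0.079 on the values as deposited), and the other genes from Boot at -4.67 to Hel25E at 1.83.

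Between NC 9-10 and syncytial blastoderm no member was called in unbound RNA, and from there to cellular blastoderm 4 were. In the first of these comparisons 0 of the 9 members were called by limma, against 6.59% of all genes (0.629% higher and 5.96% lower), with 1 member, cuff, at an unadjusted p below 0.05, where 17.7% of all genes stood. On the values as deposited 3 were called, all lower: piwi, cuff and armi. From syncytial to cellular blastoderm 4 members (armi, del, piwi and spn-E) were called lower, against 16.2% of all genes, and 0 higher, against 17.1%. With the flow-through libraries fitted alone zuc was called higher (1.01, adjusted p = 0.0286). The count was 2 without the first syncytial or the first cellular preparation. The median over all genes was 0.26 and over the members 0.09.

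Other genes of the pathway were listed from textbook knowledge, 33 in all, of which 32 were in the tables and tested. Between NC 9-10 and cellular blastoderm 11 of the 32 were called higher and 10 lower in unbound RNA, where 25.3% and 23.2% of all genes were, with a median of 0.24 beside 0.23 for all genes. The 12 genes named here had limma adjusted p-values of 2.52e-06 to 0.00844. Among those that fell were Boot (-4.67), which with Nxf3 (-2.90) exports cluster transcripts, the exonuclease nbr (-4.02), which trims piRNA ends, the DEAD-box helicase vas of the nuage (-3.88), the Tudor protein tapas (-3.68) and the co-chaperone shu (-3.17), which helps load PIWI proteins. The gene vas is also among the germ plasm markers. Among those that rose in this scaling were the helicase Hel25E (1.83), which binds cluster transcripts, moon (1.73), which starts transcription inside clusters, vls (1.37) of the arginine methylation machinery, the Tudor protein tej (1.36), the histone methyltransferase egg (1.35) and nxf2 (1.29), which acts with Piwi in silencing. On the values as deposited 0 were called higher and 15 lower, and vls, tej, egg and nxf2 changed sign. By total scaling 2 were higher, Hel25E and moon, and 12 lower. By role, 4 of the 7 genes of nuclear silencing were called higher and 0 lower in the main scaling, and 0 higher and 1 lower in either other scaling; no test of these counts was made. Genes of the nuage split 4 higher and 4 lower of 10, those of cluster transcription 2 and 2 of 5, and those of phased processing 1 and 4 of 10, all in the main scaling.

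At cellular blastoderm the members divided in the labelled RNA. All but cuff and spn-E were lower in eluate than in flow-through in all 3 eluate and flow-through pairs of both sets. The share of all genes lower in all 3 was not counted, so the count of members has no direct background. Taken pair by pair, those 7 members exceeded 2.92% to 13.2% and 4.27% to 17.4% of all genes in the poly(A) preparations. In the rRNA-depleted one they exceeded 2.66% to 18.5%. The log2 differences of the 7 members other than cuff and spn-E were -2.64 to -1.02 in the poly(A) set and -3.20 to -1.43 in the rRNA-depleted one. The median over all genes was 0.63, 0.50 and 0.51. In poly(A) eluates rhi stood at 19.8 and 39.8 ppm, against 129 and 152 ppm in flow-through, and AGO3 at 85.4 and 139 ppm, against 346 and 384 ppm. The members highest in unbound RNA at this stage, AGO3 and rhi, thus stood well below it in eluates. Relative to flow-through, rhi exceeded 2.92% and 4.27% of all genes in the 2 preparations.

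For spn-E the eluate stood at 96.1 and 133 ppm and the flow-through at 76.3 and 104 ppm, log2 differences of 0.33 and 0.35, with 0.43 in the rRNA-depleted preparation. These values lay near the middle of all genes, above 45.2%, 47.2% and 48.8% of them. The same difference for spn-E was 0.22 and 0.58 at NC 9-10 and 0.12 and 0.15 at syncytial blastoderm, so it was above 0 in every preparation. For del the differences were 0.41 and 0.68 at NC 9-10, 0.10 and 0.45 at syncytial blastoderm and -2.17 and -1.18 at cellular blastoderm. The cellular del eluates held only 3.59 and 0.85 ppm, an estimated 68 and 19 reads. At NC 9-10, 7 of the 9 members were above flow-through in all 3 eluate and flow-through pairs of both sets. The exceptions were cuff and zuc, and zuc in poly(A) eluates stood at 30.2 and 14.8 ppm there. The median difference over all genes at NC 9-10 was 0 in both poly(A) pairs and -0.030 in the rRNA-depleted one. The share of all genes above flow-through in all 3 was not counted, so this count of members has no direct background either. Taken pair by pair, the 7 members exceeded 58.0% to 95.9% and 63.2% to 97.6% of all genes in the poly(A) preparations. In the rRNA-depleted one they exceeded 60.4% to 95.2%.

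**Figure D3:**
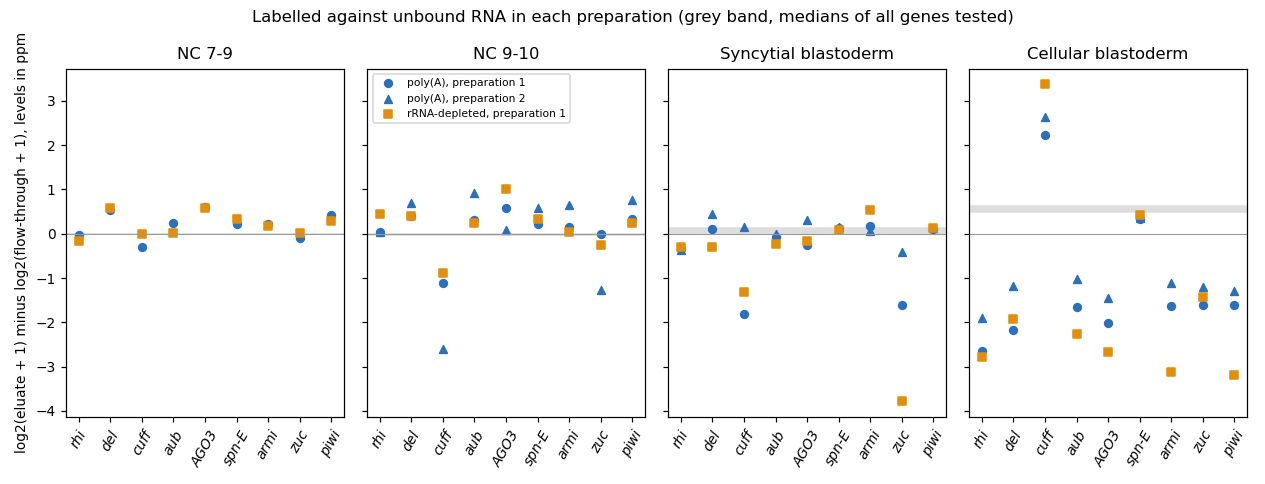
Log2(eluate + 1) minus log2(flow-through + 1), levels in ppm, for each member and preparation by stage, poly(A) in blue and rRNA-depleted in orange; the grey band spans the medians over all genes. At cellular blastoderm cuff lay at 2.24 to 3.37, spn-E at 0.33 to 0.43 and the other 7 members below 0.

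Eluate was compared with flow-through over the 4 rRNA-depleted preparations, with a term for stage, for the 7 members other than cuff and del. By limma 0 of 7 were called, against 0% of the 8131 genes tested. At an unadjusted p below 0.05, 0 of the 7 members, 394 genes higher and 329 lower were found, and the smallest adjusted p over all genes was 0.109. The log2 differences ran from -1.36 ± 0.67 (SE) for zuc (adjusted p = 0.498) to 0.29 ± 0.25 (SE) for spn-E (adjusted p = 0.597). Of the 7, spn-E alone had the same sign at all 4 stages. Without the cellular blastoderm preparation piwi (0.23), aub (0.012), AGO3 (0.48) and armi (0.25) changed sign, with none called. With a pseudocount of 0.1, 25 genes were called higher and 1 lower, and by total scaling 78 and 40, none of them a member. On the values as deposited, where eluates have lower totals than the other fractions, 56 genes were called higher and 6823 lower, all 7 members among the latter.

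Both concentrations of 5-EU were used at the blastoderm stages, 1 preparation each, so the concentration and the preparation cannot be told apart. Only del was lower in the 50 mM preparation in all 6 pairs of stage and fraction. The share of all genes lower in all 6 was not counted, and fractions of 1 preparation deviated together. In flow-through at syncytial blastoderm del was 166 ppm at 250 mM and 49.0 ppm at 50 mM, and at cellular blastoderm 19.6 and 3.19 ppm, a log2 difference of -2.30. For this last pair 1.06% of the genes tested had a difference as low or lower, against 5.79% to 9.47% for the other pairs. Piwi in the cellular flow-through libraries was 56.5 and 77.2 ppm, the opposite order. Between stages within each concentration, unbound del differed from syncytial to cellular blastoderm by -3.02 at 250 mM and -3.58 at 50 mM, armi by -2.56 and -2.50, piwi by -1.68 and -1.36 and spn-E by -1.16 and -0.61. For cuff it was -0.68 and 0.85.

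The ratio of del to piwi within a library differed between the sets. At NC 7-9 and NC 9-10 it was 1.15 to 1.45 in the 9 poly(A) libraries and 0.354 to 0.431 in 5 rRNA-depleted libraries. In the rRNA-depleted NC 9-10 input, which resembled poly(A) libraries, it was 1.22. That input correlated across 6463 genes at 0.994 with a poly(A) input of its stage and at 0.902 with its own flow-through. The tables were scaled separately, but a ratio within a library does not depend on the scaling.

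**Figure D4:**
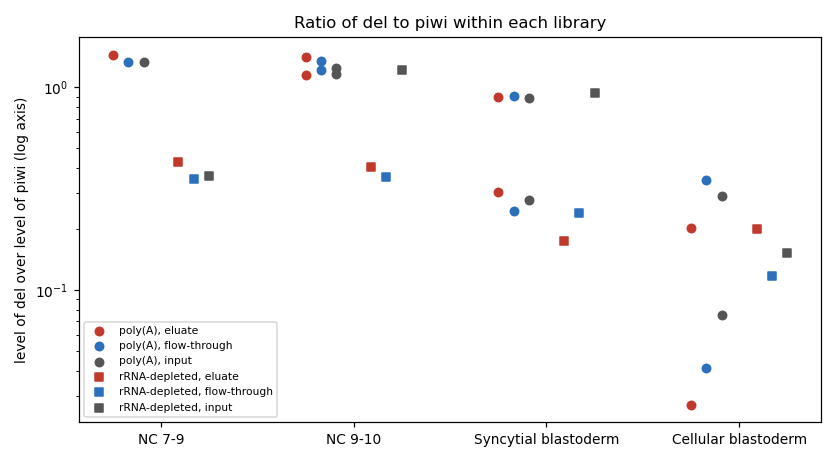
Level of del over level of piwi within each library, on a log axis, by stage; circles are poly(A) and squares rRNA-depleted libraries, and colours mark the fraction. The poly(A) libraries of NC 7-9 and NC 9-10 lie at 1.15 to 1.45, and 5 of the 6 rRNA-depleted ones at 0.354 to 0.431.

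The genes whose log2 levels over the 21 poly(A) libraries were most like those of del were CG2841 (Pearson r = 0.994), cwo (0.989), osk (0.986), E23 (0.986) and stai (0.985), of which osk is a germ plasm marker. For cuff they were CG13623 (0.873), CG3862 (0.866), CG3184 (0.850), fsd (0.845) and CG42488 (0.836). The libraries share preparations and stages, so these are descriptions. Among the members, r was 0.983 between piwi and armi, 0.941 between del and armi, 0.877 between aub and rhi and 0.869 between AGO3 and rhi.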

How the data were processed

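The authors deposited RPKM values for 21 poly(A) and 12 rRNA-depleted libraries, 16407 genes in each table. Per the labels' protocols, libraries came from the SMARTer Stranded kit; the submitters' processing notes name STAR, HTSeq and dm6, with no version. For strand setting, annotation and scaling, nothing is given in the sources used here. The deposited RPKM values behave as reads per kilobase, multiplied by a library factor that is not known, with 1 added. The added 1 was taken off, libraries were scaled to 1000000 and by the median of ratios within each table. The tests planned for RPKM were run on these rescaled values. Reads were estimated from the value of 1 read (tolerance 0.02) and exonic lengths of 16330 genes in BDGP6.54, the source of coordinates. Being estimates, they entered no count test and carry no interval.

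Genes at 1 ppm or more in at least 2 libraries were tested, 8744 and 8131, all 9 members among them. limma 3.58.1 (R 4.3.3, mean trend) was fitted to log2(level + 1) with Benjamini-Hochberg adjustment over all genes tested and a threshold of 0.05. The fold change of low genes is understated. The poly(A) fit had a mean per stage and fraction over all 21 libraries, and the rRNA-depleted fit a term for stage. The script was tested on simulated data. Members, lists and tests were chosen with earlier results of these data known. Beside the members, the 6 other pathway genes with the largest difference in each direction among those called between NC 9-10 and cellular blastoderm are named, and the 5 genes most like cuff and del. The titles tie eluate, flow-through and input of 1 preparation, whose deviations from the stage mean correlated at 0.511 to 0.929. Flow-through libraries of a stage correlated at 0.946 to 0.972 with no duplicate. The listed gene daed was not matched; moon, Boot, Kipf, nbr and sov are in the tables under other symbols. Alternatives were another pseudocount, no filter, both other scalings, flow-through alone, the replicate block and each library left out; another scaling of the rRNA-depleted set was chosen after seeing the data.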

Additional observations from a re-analysis of the deposited data

Results flagged for a closer look

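In the poly(A) set, the log2 difference between eluate and flow-through had one sign in both preparations at NC 9-10 and the opposite sign in both at cellular blastoderm for 7 of the 9 members. The same held for 23.9% of all genes tested, 12.7% in the direction of cuff and 11.2% in that of the other 6. The median over all genes was 0 in both NC 9-10 preparations and 0.63 and 0.50 in the cellular ones. The difference between the stages was not tested. The change from NC 9-10 to cellular blastoderm in the mean difference was 4.29 for cuff. It was -2.31 for rhi, -2.22 for del, -2.06 for AGO3, -2.00 for piwi, -1.95 for aub and -1.77 for armi. The enrichment of cuff and del chose the members, so their values are no separate result. Both are in the count of 7, and del is in that of the other 6. Beside these, 1 of the 2 cellular preparations had 50 mM 5-EU and both at NC 9-10 had 250 mM; the part of the concentration was not tested.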

How the results depend on the processing

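Over the single members, 281 of the alternative fits kept direction and side of the threshold, 16 moved past it, 17 lost the call and 26 changed sign; the cause was not tested. On the values as deposited, the signs that turned between NC 9-10 and cellular blastoderm were those of aub (-0.78), AGO3 (-0.51), rhi (-0.47) and zuc (-0.079). Between NC 9-10 and syncytial blastoderm they were those of aub (-0.81), AGO3 (-0.61), rhi (-0.66), spn-E (-1.13) and zuc (-0.60), and otherwise cuff between syncytial and cellular blastoderm (-0.24) and spn-E in the rRNA-depleted set (-4.70). By total scaling, aub (-0.16), AGO3 (-0.091), rhi (-0.0062) and cuff (-0.31) turned between syncytial and cellular blastoderm, and spn-E between NC 9-10 and syncytial blastoderm (-0.063) and in the rRNA-depleted set (-0.16). With 1 flow-through library left out, piwi ran from -0.50 to 0.0063 and spn-E from -0.20 to 0.24 between NC 9-10 and syncytial blastoderm, and cuff from -0.47 to 0.65 between syncytial and cellular blastoderm. With 1 stage left out of the rRNA-depleted set, the ranges were -0.94 to 0.23 for piwi, -0.82 to 0.012 for aub, -0.75 to 0.48 for AGO3 and -0.97 to 0.25 for armi. As deposited, the members called were 3 between NC 9-10 and syncytial blastoderm and 7 in the rRNA-depleted set, against 0 in the main fits. With each flow-through library left out, 5 to 6 members were called between NC 9-10 and cellular blastoderm, 2 to 3 between syncytial and cellular blastoderm and 0 between NC 9-10 and syncytial blastoderm; leaving out each rRNA-depleted stage gave 0.

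The labels number replicates at NC 9-10 only; at the blastoderm stages the number follows the order of the samples, so the design does not pair stages. Same-numbered flow-through libraries nevertheless deviated together between stages (r of 0.50 to 0.70), a hint from the data. At both blastoderm stages the first preparation had the higher concentration of the label and the second the lower. The highest r, 0.70, was between these stages, where replicate number and concentration cannot be told apart. The replicate block holds the same mixture. The part of the concentration in the calls gained with it was not tested. With the replicate block, 8, 0 and 6 members were called in the 3 unbound comparisons, against 7, 0 and 4, with aub (adjusted p = 0.00721, NC 9-10 to cellular), rhi and zuc (adjusted p = 0.0140 and 0.0443, syncytial to cellular) gained as higher. Without the stage term as a block in the rRNA-depleted fit, 0 members were called. Calls over all genes rose as well. Between NC 9-10 and cellular blastoderm the replicate block called 2631 higher and 2387 lower, against 2214 and 2031. From syncytial to cellular blastoderm it called 2185 and 1718, against 1491 and 1420. Between NC 9-10 and syncytial blastoderm it called 224 and 1039, against 55 and 521. In that last comparison flow-through libraries alone called 0, and as deposited these were 130 and 1629. Groups of 2, the unknown scaling of each library and the few reads of cuff limit precision.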
